A study of Schmidtea mediterranea with 18 samples.

Results

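Trunk fragments of regenerating Schmidtea mediterranea, a planarian flatworm, were compared between APC RNAi and control RNAi late in regeneration, at days 4, 5 and 6 after amputation. These are 6 of the 18 libraries in the series, 3 on each side, chosen by their labelled treatment and day and paired by day. All animals were labelled wildtype and belonged to the asexual clonal strain CIW4. They received 3 feeds of double-stranded RNA, against apc in one group and under the titles GFP RNAi in the control group, and were cut 3 days after the last feed. The strain was kept on beef liver and starved for 1 week before collection. Bcat RNAi libraries of the same days, from animals fed RNA against Smed-Bcatenin1, are given beside some values. Each library was 1 pool of RNA from 3 biological replicates, so the spread reported is over 3 days of 1 treatment and not between animals. With day fitted as a factor, an edgeR p-value sets a difference between treatments against how much that difference varied between days. This variation is estimated largely over many transcripts together. The p-value is thus not a measure of how constant 1 transcript was. The fragments are pieces of body with many cell types mixed, so fewer cells of a type and less RNA per cell cannot be told apart. Most labels name trunk fragments while the treatment protocol names tail fragments.

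Planarians replace lost parts from stem cells spread through the body. Canonical Wnt signalling acts through beta-catenin, which enters the nucleus and works with TCF/LEF factors to switch on target genes, and the apc protein belongs to the complex that marks beta-catenin for breakdown. In planarians high activity of this pathway specifies posterior identity and low activity anterior identity. Loss of apc is known to give tails in place of heads, and loss of beta-catenin-1 heads in place of tails. By days 4 to 6 new tissue has formed at the wound and is being patterned. The deposited tables list SmedASXL transcript identifiers without gene names, so transcripts are described by their levels and no function is given to any of them. For the same reason the level of apc itself and the markers of trunk tissue were not read here.

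The 6 libraries held between 41549185 and 55885884 reads aligned to transcripts. The APC RNAi library of day 5 stood apart from the others. Its most abundant transcript took 13.7% of its reads, against 10.7% to 11.2% in the other 5 libraries, and it had the lowest share of reads in scarce transcripts. The counts of calls over all transcripts, per abundance class, at 2-fold and shared with days 1 to 3 were computed again without the day 5 pair, and those that moved by more than 1.5 times are given both ways.

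SmedASXL_066371 had the largest rise at days 4 to 6 among transcripts that averaged 2 or more CPM (a transcript's reads per M aligned reads, after TMM scaling of library size) over the 6 libraries. Its level in APC RNAi was 5.16, 7.18 and 4.06 CPM at days 4, 5 and 6. In control it was 0.455, 0.184 and 0.018 CPM on the same days, the last of these a single read. The groups did not overlap. Control fell lower each day, and the 3 APC RNAi values followed no order by day. It rose by a log2 fold change of 4.65 with an SE of 0.25 (adjusted p = 7.01e-17, edgeR's quasi-likelihood test), on 709 reads in APC RNAi and 36 in control. The log2 differences were 3.39, 5.01 and 6.15 at days 4, 5 and 6, and DESeq2 gave an SE of 0.99 (adjusted p = 2.39e-06, DESeq2). Bcat RNAi stood beside control, at 0.382, 0.136 and 0.182 CPM.

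SmedASXL_013884 was the second largest rise and was more abundant. APC RNAi held 50.2, 66.9 and 42.2 CPM at days 4, 5 and 6. Control held 5.1, 3.79 and 1.48 CPM. Again the 3 control values descended with the day and lay far below every APC RNAi value. On the log2 scale it rose by 3.98 with an SE of 0.14 (adjusted p = 3.43e-22, edgeR). The log2 differences were 3.29, 4.13 and 4.8 at days 4, 5 and 6, and DESeq2 gave an SE of 0.43 (adjusted p = 1.79e-19, DESeq2). Bcat RNAi had 3.01, 1.15 and 2.33 CPM.

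SmedASXL_018153 had the largest fall by the same rule. Control held 6.13, 14.5 and 23.7 CPM at days 4, 5 and 6, and APC RNAi 0.369, 0.645 and 0.726 CPM. It fell by 4.68 on the log2 scale with an SE of 0.15 (adjusted p = 7e-23, edgeR), and the highest APC RNAi value was far below the lowest control value. The log2 differences were -3.92, -4.41 and -4.95 at days 4, 5 and 6, and DESeq2 gave an SE of 0.24 (adjusted p = 1.29e-77, DESeq2). Bcat RNAi had 15.8, 24.1 and 41.6 CPM.

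SmedASXL_008433 fell next, from 2.5, 4.58 and 4.47 CPM in control to 0, 0.289 and 0.576 CPM in APC RNAi at days 4, 5 and 6. The APC RNAi values rest on 0, 13 and 27 reads. It fell by 3.75 on the log2 scale with an SE of 0.25 (adjusted p = 5.36e-14, edgeR). The log2 differences were -6.01, -3.81 and -2.87 on these days, and DESeq2 gave an SE of 1.3 (adjusted p = 0.00262, DESeq2). Bcat RNAi had 4.39, 8.69 and 9.1 CPM. Both fallen transcripts thus stood higher in control than in APC RNAi on each of the 3 days.

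**Figure D1:**
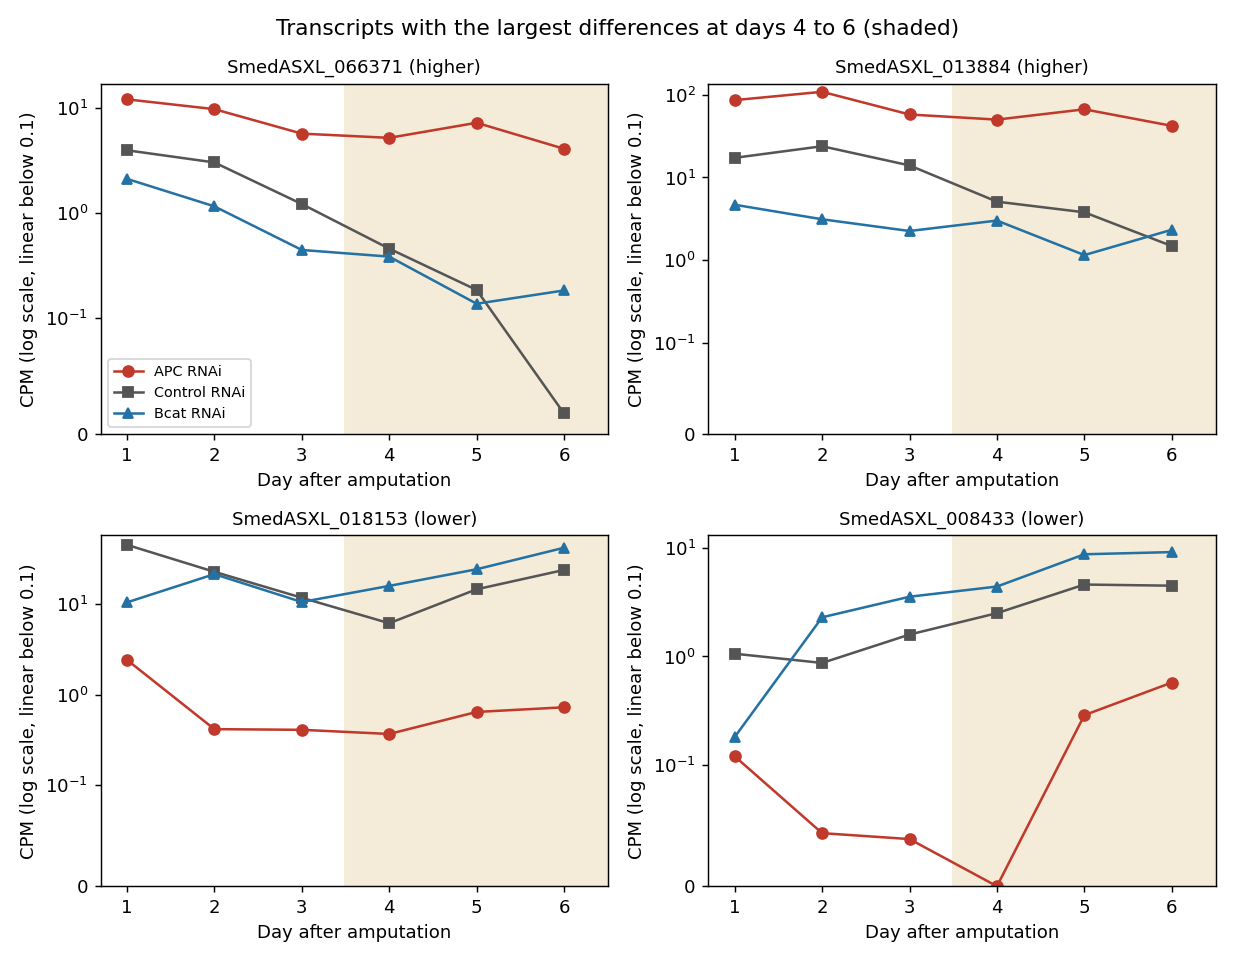
Level in CPM (log axis, linear below 0.1 CPM) of the 4 transcripts with the largest differences, by day after amputation, in APC RNAi (circles), control RNAi (squares) and Bcat RNAi (triangles); each point is 1 library and days 4 to 6 are shaded. In the upper panels control drops to 0.018 and 1.48 CPM by day 6, when APC RNAi is at 4.06 and 42.2 CPM, and in the lower panels APC RNAi stays below control at each of the 6 days.

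The authors' deposited table compares APC RNAi with Bcat RNAi over all days. In the authors' deposited table SmedASXL_013884 has a log2 fold change of 3.33 and SmedASXL_066371 one of 1.36, both higher in APC RNAi. In the authors' deposited table SmedASXL_018153 has -2.13 and SmedASXL_008433 has -0.86, both higher in Bcat RNAi. Those values were not recomputed, and their sizes cannot be set beside the log2 changes above. At days 4 to 6 SmedASXL_066371 averaged 5.47 CPM in APC RNAi and 0.233 CPM in Bcat RNAi. SmedASXL_008433 averaged 0.289 and 7.39 CPM.

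Only 1 transcript had no read in any of the 3 control libraries and at least 10 reads in each APC RNAi library. SmedASXL_018913, named after its values were seen, had 11, 47 and 82 reads in APC RNAi at days 4, 5 and 6. These are 0.29, 1.05 and 1.75 CPM. With 3 reads over the control group set as an upper limit for its count of 0, the pooled APC RNAi level of 1.08 CPM was at least 60.3-fold higher. That limit covers counting error in control only and not the spread over days, which went from 0.29 to 1.75 CPM in APC RNAi. At days 1 to 3 control held 7, 1 and 5 reads and APC RNAi 51, 71 and 32. No transcript had the reverse pattern, 0 reads in all APC RNAi libraries and at least 10 in each control library.

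Across the transcriptome APC RNAi was higher for 6389 and lower for 6969 transcripts at days 4 to 6, which are 18.5% and 20.2% of the 34519 tested (edgeR quasi-likelihood test with day as a block, Benjamini-Hochberg adjusted p under 0.05). Of these, 174 were at least 2-fold higher (0.504% of those tested) and 2576 at least 2-fold lower (7.46%). Transcripts averaging below 1 CPM made up 78 of the 174 and 2363 of the 2576. All 3 APC RNAi libraries lay above all 3 control libraries for 7795 transcripts (22.6%) and below them for 7824 (22.7%). The split between higher and lower turned with the scaling. Higher transcripts were 47.8% of the calls with TMM factors, 61.2% with RLE size factors. Loess offsets, which remove any shift with abundance, gave 51.6%. Higher transcripts were 18.9% when TMM factors came only from the transcripts with 4 CPM or more, a scaling under which the median of all log2 changes moved by -0.19. With DESeq2, which differs in its test and dispersion model as well as in its size factors, higher transcripts were 82% of the calls. DESeq2 also ran with its default filter, which can leave scarce transcripts without an adjusted p. The number so left out was not counted. With loess offsets 480 were at least 2-fold higher and 432 at least 2-fold lower. Without the day 5 pair 5457 were higher, 3948 lower and 1640 at least 2-fold lower, and without the day 6 pair 3553 and 5196. With no replicate block (treatment as the only term) 3569 were higher and 3937 lower.

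With TMM factors, scarce and abundant transcripts differed in opposite directions. The zero of these changes is set by the scaling. When only transcripts with 4 CPM or more set the TMM factors, the median log2 change was -0.71 below 1 CPM and 0.09 over 64 CPM. The counts below thus show scarce transcripts lower relative to abundant ones, and not how many abundant transcripts rose. Below 1 CPM, APC RNAi was lower for 4246 (25.9%) and higher for 206 (1.25%) of 16423 tested, and the median log2 change was -0.52. From 1 to 4 CPM it was lower for 1806 and higher for 474 of 5017, and the median was -0.23. From 4 to 16 CPM the balance turned, with 1542 higher and 580 lower of 5006. From 16 to 64 CPM 2541 were higher and 256 lower of 5431, and over 64 CPM 1626 (61.5%) were higher and 81 (3.07%) lower of 2642, with a median of 0.28. Without the day 5 pair 2011 were lower and 136 higher of 17398 tested below 1 CPM, and from 1 to 4 CPM 1127 were lower and 263 higher.

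The order of the classes was the same on each day. Below 1 CPM the median log2 difference was -0.44, -0.63 and -0.29 at days 4, 5 and 6, and over 64 CPM it was 0.24, 0.41 and 0.28. The shift was widest in the day 5 pair. Single transcripts varied over the 3 days by a median SD of the log2 difference of 0.44 below 1 CPM and 0.12 over 64 CPM, so a typical shift of 1 scarce transcript was about as large as its own spread. With loess offsets the medians were -0.09 and 0.01, and the calls were 659 higher and 507 lower below 1 CPM and 333 higher and 438 lower over 64 CPM. A library-wide shift and an effect of the treatment on many transcripts cannot be told apart, since each library differs in both.

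**Figure D2:**
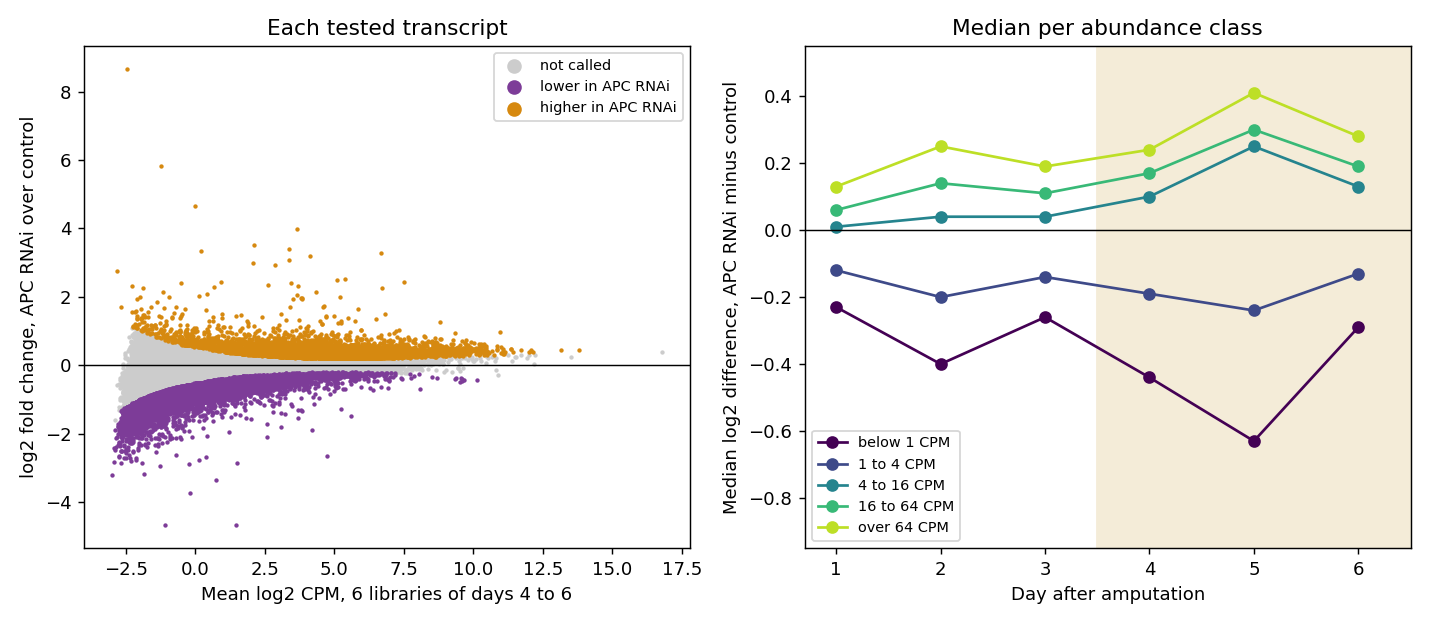
Left, log2 fold change of APC RNAi over control at days 4 to 6 against mean log2 CPM over the 6 libraries, 1 point per tested transcript, coloured by its call. Right, median log2 difference (APC RNAi minus control) per abundance class and day, with days 4 to 6 shaded. Transcripts below 1 CPM have medians of -0.44, -0.63 and -0.29 at days 4 to 6 and those over 64 CPM have 0.24, 0.41 and 0.28.

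The same shift can be described per library. Apart from unaligned reads, the measures below come from the same counts as the classes above and are not separate support. Transcripts below 1 CPM took 0.752%, 0.582% and 0.916% of the reads in APC RNAi at days 4, 5 and 6, and 1.2%, 1.22% and 1.36% in control. The groups did not overlap and differed by -0.507 percentage points (exact two-sided permutation test of 3 against 3, p = 0.1, the smallest this design allows, and 0.15 after Benjamini-Hochberg adjustment over 3 measures). With every library thinned to 40 M reads, APC RNAi had reads of 68005 ± 3825 transcripts and control of 74469 ± 898 (SD, n = 3, exact permutation p = 0.1, adjusted 0.15). Unaligned reads were 5.17% ± 0.297 in APC RNAi and 5.75% ± 0.21 in control, with overlapping groups (SD, n = 3, exact permutation p = 0.2, adjusted 0.2). These permutations did not pair the days. Within days APC RNAi had fewer unaligned reads on all 3, with 5.01% against 5.51%, 4.99% against 5.83% and 5.51% against 5.91% at days 4, 5 and 6. For transcripts over 64 CPM the mean share was 77% in APC RNAi against 74.6% in control, with no overlap and no test run. The TMM factors at days 4, 5 and 6 were 0.914, 0.805 and 0.97 in APC RNAi and 1.06, 1.11 and 1.15 in control. The part of these library differences in the calls of single transcripts was not tested.

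Transcripts that changed at least 2-fold and averaged 2 or more CPM numbered 78 higher and 69 lower, 0.513% and 0.454% of the 15202 tested at that abundance. The average is over both groups, so a transcript could pass through the group where it was high. SmedASXL_008433, for example, averaged 0.289 CPM in APC RNAi and 3.85 CPM in control. Without the day 6 pair 121 were lower. When only transcripts with 4 CPM or more set the TMM factors the counts were 54 higher and 175 lower, and with a filter of 1 CPM in 3 libraries 58 and 123. Changes of at least 4-fold were made by 21 of the higher and 6 of the lower ones, and of at least 8-fold by 8 and 3. All 78 kept their direction and their call with loess offsets, 65 of them at 2-fold or more. So did all 69, 57 of them at 2-fold or more. Both sets were chosen by size and call in the same libraries. Of all 13358 late calls, 4879 were kept in the same direction with loess offsets. The higher ones were spread over abundance, with 41 at 16 CPM or more, while 64 of the 69 lower ones lay below 16 CPM.

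The 78 higher transcripts had a median level of 23.2, 27.8 and 21.9 CPM in APC RNAi at days 4, 5 and 6. In control the median was 7.97, 6.49 and 5.01 CPM, and in Bcat RNAi 5.66, 3.91 and 3.76 CPM. Their median log2 difference from control was 1.24, 1.6 and 1.69 on the same days. Control declined over these days while APC RNAi showed no such decline. Together these transcripts took 4216, 4792 and 3976 CPM in APC RNAi and 1667, 1434 and 1027 CPM in control. In Bcat RNAi they took 2251, 1613 and 1700 CPM.

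The 69 lower transcripts had a median level of 2.42, 2.18 and 2.58 CPM in APC RNAi and of 5.56, 6.1 and 6.5 CPM in control. In Bcat RNAi the median was 5.09, 4.5 and 5.6 CPM. Summed, the 69 took 273.1, 277.8 and 301.6 CPM in APC RNAi, 698.7, 780 and 797.4 CPM in control and 1490, 1515 and 1713 CPM in Bcat RNAi. Their median log2 difference from control was -1.16, -1.44 and -1.08, with no order by day, while that of the higher ones grew from day 4 to day 6. Bcat RNAi shares the control libraries in any such comparison, and its levels are given for reference only.

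**Figure D3:**
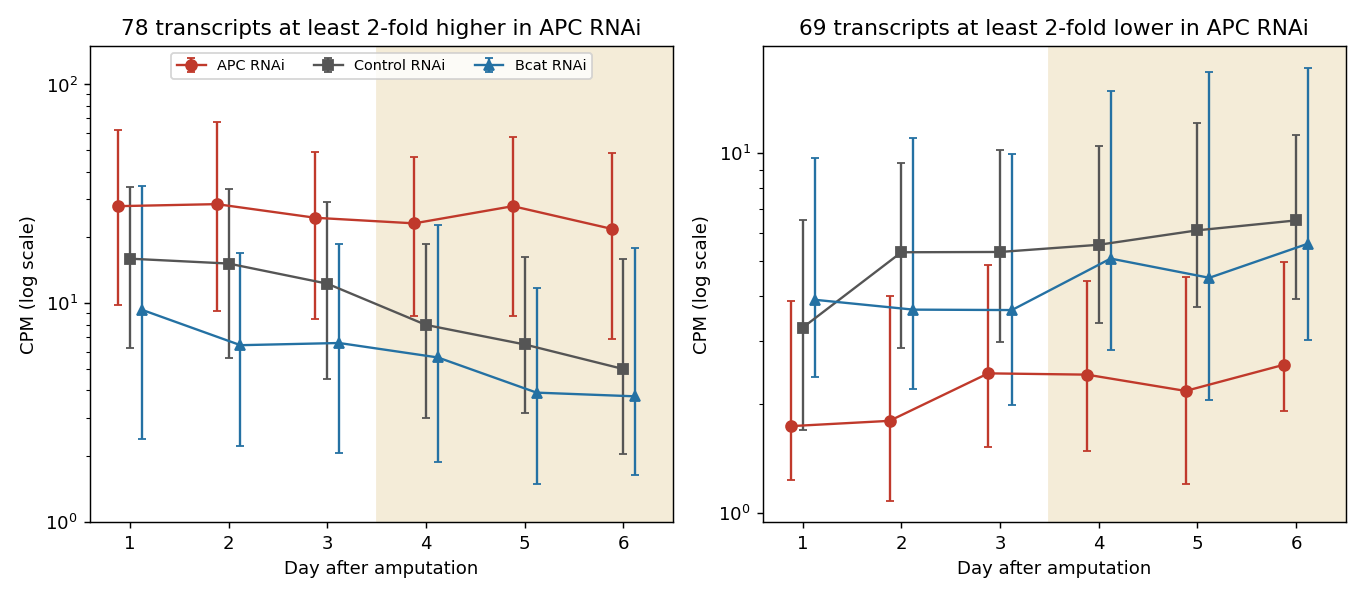
Median CPM (log axis) of the 78 transcripts at least 2-fold higher (left) and the 69 at least 2-fold lower (right) in APC RNAi at days 4 to 6, by day and treatment; bars span the quartiles over transcripts and days 4 to 6 are shaded. Between day 1 and day 6 the left panel shows control going from 16 to 5.01 CPM and APC RNAi from 27.8 to 21.9 CPM, and in the right panel APC RNAi stays at or below 2.58 CPM.

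The libraries of days 1 to 3 took no part in choosing these transcripts, and they were used to ask whether the late differences were already present. In a fit of the same size on days 1 to 3, 66 of the 78 (84.6%) were also higher in APC RNAi (edgeR quasi-likelihood test, adjusted p under 0.05), where 23.6% of all 15202 transcripts at that abundance were higher. Their median early log2 change was 0.75, against 1.4 at days 4 to 6. Of the 69 lower transcripts 68 (98.6%) were also lower early, where 6.56% of the 15202 were, with a median early log2 change of -1.01 against -1.18 late. These shares of the 15202 were not matched for abundance, and 64 of the 69 lay below 16 CPM. Lower calls at days 4 to 6 were commoner among scarcer transcripts, at 36% from 1 to 4 CPM and 3.07% over 64 CPM. Another 11 of the higher and 1 of the lower were not called early.

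A single higher transcript was called in the opposite direction early. SmedASXL_076122, named after its values were seen, had 0.556, 0.11 and 1.97 CPM in APC RNAi at days 1 to 3 and 3.17, 1.14 and 2.14 CPM in control. At days 4 to 6 it had 2.95, 3.36 and 3.35 CPM in APC RNAi and 1.14, 2.04 and 0.613 CPM in control. Its log2 fold change was -1.4 early (SE 0.37, adjusted p = 0.0193, edgeR) and 1.37 late (SE 0.19, adjusted p = 1.88e-06, edgeR).

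**Figure D4:**
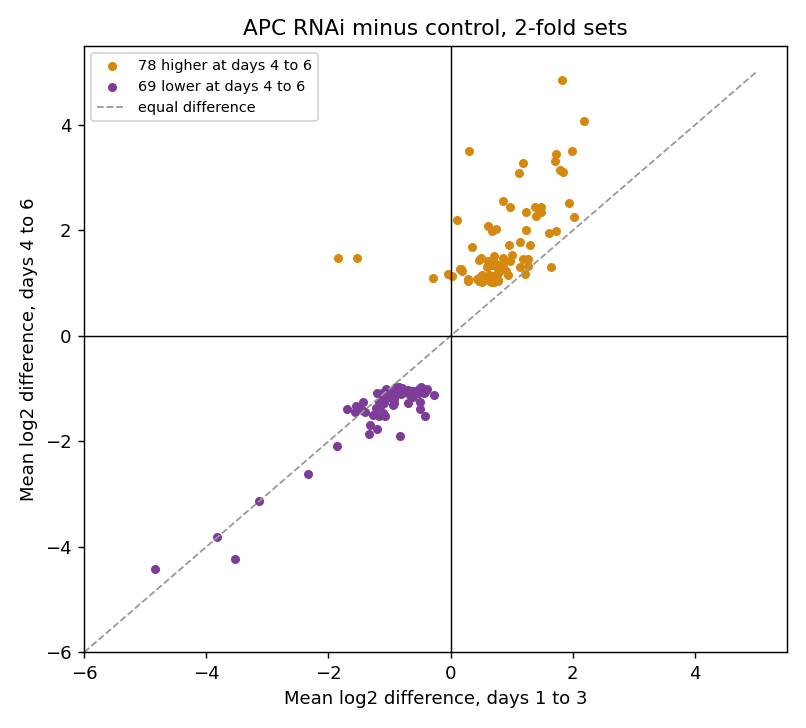
Mean log2 difference (APC RNAi minus control) at days 4 to 6 against that at days 1 to 3 for the 78 higher and 69 lower transcripts, 1 point each, with a dashed line of equal difference. Of the higher ones 74 have an early mean difference above 0, while 66 of the 78 were called higher early, and all 69 lower ones lie to the left of 0. The members were chosen by the vertical axis, so their distance from the dashed line is partly set by that choice.

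Over all abundances, transcripts called early were mostly called late as well. At days 1 to 3, 11.3% of the 32659 transcripts tested were higher and 7.8% lower. Of 31600 transcripts tested in both periods, 3019 were higher in both, which is 47.3% of those higher late and 81.7% of those higher early. Another 1706 were lower in both, 27.4% of those lower late and 68.5% of those lower early. Only 19 of the transcripts higher late were lower early, and 3 of those lower late were higher early. The periods share no library. Both hold the shift with abundance, which had the same order of classes on all 6 days.

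The level over time differed between the treatments for the changed transcripts. In control 74 of the 78 higher transcripts (94.9%) had a lower mean log2 level at days 4 to 6 than at days 1 to 3, with a median change of -0.62, where 68.6% of all 15202 transcripts did. In APC RNAi 40 of the 78 (51.3%) had a lower late level, with a median change of -0.03, where 47.4% of the 15202 did. For the lower transcripts, 64 of 69 (92.8%) were higher late than early in control, with a median change of 0.42, where 31.4% of the 15202 were. In APC RNAi 53 of the 69 (76.8%) were higher late, with a median change of 0.17, where 52.6% of the 15202 were. The late levels of both groups helped to choose these transcripts, so these figures are a description.

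Whether the late difference was larger than the early one was tested directly with a treatment by period term over the 12 APC RNAi and control libraries. The difference moved up for 73 transcripts and down for 14 of 38044 tested, 0.192% and 0.0368% (edgeR quasi-likelihood test, adjusted p under 0.05), and 4224 had an unadjusted p under 0.05. These counts depended strongly on single days and on the model. Those that moved up numbered 45, 119, 1333, 36 and 41 without days 2, 3, 4, 5 and 6 in turn, and 54 without day 1. Those that moved down numbered 9, 3, 23, 116, 4 and 2 without days 1 to 6 in turn. With no replicate block 1 moved up and 0 down, with 1883 at an unadjusted p under 0.05, and with all 18 libraries 22 and 1.

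Of the 73 that moved up, 71 were above control at days 4 to 6 and 43 at days 1 to 3, with a median log2 difference of 0.1 early and 0.99 late. Their daily medians were 0.04, 0.12 and 0.31 at days 1 to 3 and 0.65, 1.03 and 1.18 at days 4 to 6. These values belong to the contrast that chose the 73 and are a description. The 14 that moved down went from a median of 0.19 early to -0.59 late.

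SmedASXL_006360 moved up most. Control held 45, 40.4 and 31.6 CPM at days 1 to 3 and then 1.86, 0.804 and 1.26 CPM at days 4 to 6. APC RNAi held 58.9, 63 and 28.5 CPM and then 16.9, 8.52 and 21.2 CPM. The groups overlapped early and were far apart late, and the larger drop between day 3 and day 4 was in control. The log2 fold change was 0.29 early (SE 0.1, adjusted p = 0.0579, edgeR) and 3.52 late (SE 0.13, adjusted p = 2.37e-21, edgeR), and the difference between them was 3.21 (SE 0.2, adjusted p = 1.31e-08, edgeR). With all 18 libraries the difference was 3.29 and was not called (adjusted p = 0.0685, edgeR). Bcat RNAi held 60.5, 3.02 and 11 CPM early and 7.78, 1.44 and 3.19 CPM late.

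SmedASXL_066371, the largest late rise, was the second to move up. Its early levels were 12, 9.68 and 5.66 CPM in APC RNAi and 3.93, 3.01 and 1.21 CPM in control. Its log2 fold change was 1.78 early (SE 0.11, adjusted p = 2.44e-07, edgeR), and the late difference exceeded it by 2.83 (SE 0.35, adjusted p = 0.000274, edgeR). The call was lost with DESeq2 (adjusted p = 0.0595) and with no replicate block (adjusted p = 0.535). SmedASXL_013884 also moved up, by 1.76 (SE 0.2, adjusted p = 0.000101, edgeR), from an early log2 fold change of 2.18 (SE 0.06). That call too was lost with no replicate block (adjusted p = 0.737, edgeR).

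SmedASXL_011883 moved down most. APC RNAi held 26, 15.1 and 18.8 CPM at days 1 to 3 and 6.53, 10.2 and 6.4 CPM at days 4 to 6. Control held 40, 24.2 and 18 CPM early and 22.3, 27.6 and 16.7 CPM late. The groups overlapped early and not late. The difference was -1.16 (SE 0.14, adjusted p = 0.000284, edgeR), between log2 fold changes of -0.43 early and -1.56 late. Bcat RNAi was far above both, at 236, 169 and 264 CPM at days 4 to 6.

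SmedASXL_009894 had 21.7, 28.4 and 22.6 CPM in APC RNAi and 48.6, 61.3 and 64.8 CPM in control at days 4 to 6. Its log2 fold change went from -0.52 early (SE 0.08) to -1.29 late (SE 0.09), a difference of -0.81 (SE 0.13, adjusted p = 0.00466, edgeR). Its Bcat RNAi levels were 229, 298 and 273 CPM. The calls of SmedASXL_011883 and SmedASXL_009894 were lost with no replicate block (adjusted p = 0.902 for each, edgeR) and with all 18 libraries (adjusted p = 0.236 and 0.19, edgeR). That of SmedASXL_009894 was also lost without day 2 (adjusted p = 0.079, edgeR) and without day 6 (adjusted p = 0.0703, edgeR).

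**Figure D5:**
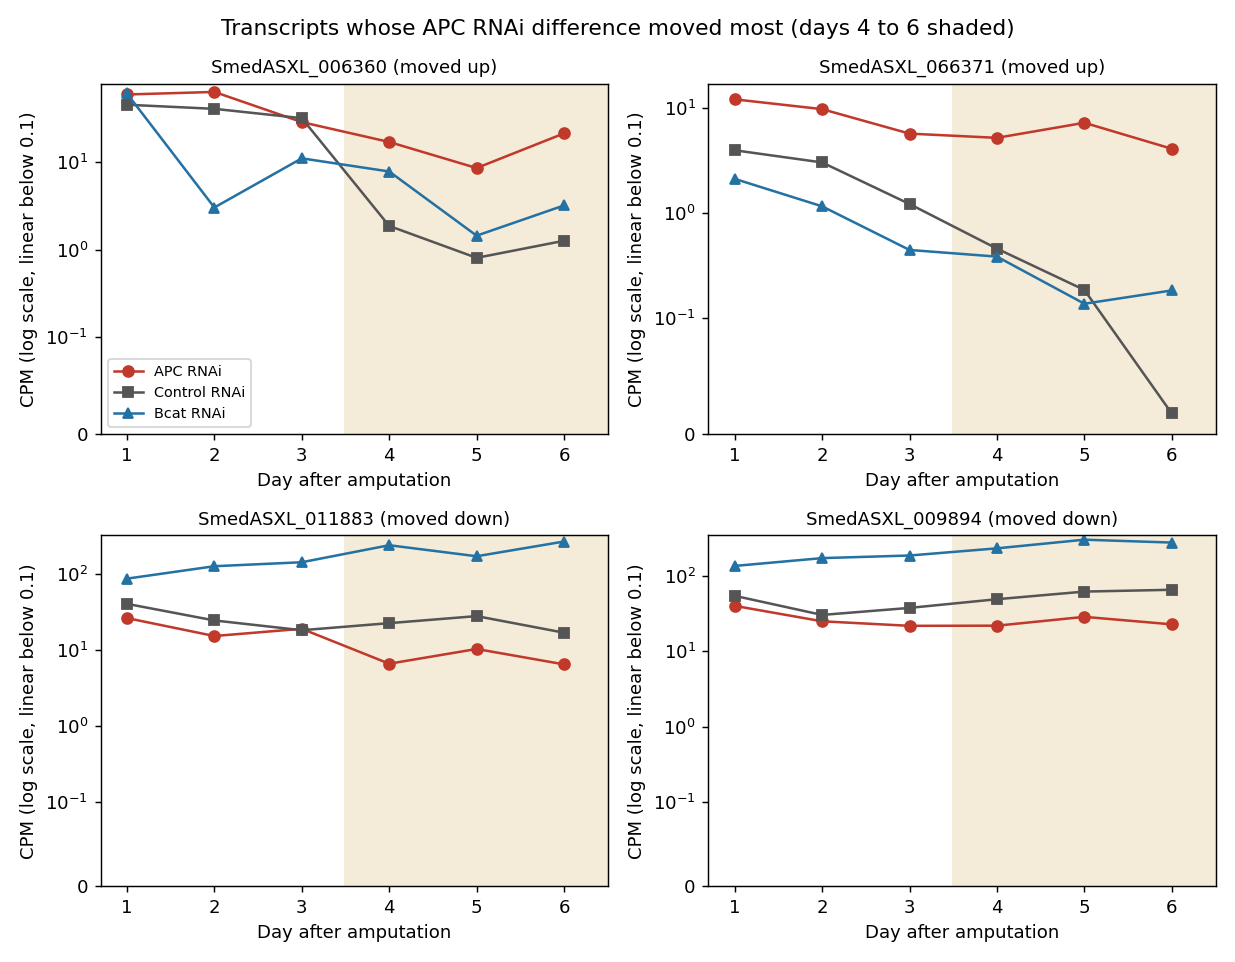
Level in CPM (log axis, linear below 0.1 CPM) by day of the 2 transcripts whose APC RNAi difference from control moved up most and the 2 that moved down most between days 1 to 3 and days 4 to 6 (shaded), in APC RNAi (circles), control RNAi (squares) and Bcat RNAi (triangles), 1 library per point. SmedASXL_006360 drops in control between day 3 and day 4 from 31.6 to 1.86 CPM while APC RNAi goes from 28.5 to 16.9 CPM.

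For the 2 named falls no change between the periods was called. SmedASXL_018153 had a log2 fold change of -4.69 at days 1 to 3 (SE 0.16, adjusted p = 3.67e-10, edgeR), and the late difference departed from it by -0.01 (SE 0.25, adjusted p = 0.991, edgeR). SmedASXL_008433 had -4.14 early (SE 0.37, adjusted p = 9.96e-06, edgeR), with a departure of 0.36 (SE 0.67, adjusted p = 0.88, edgeR). The departure of SmedASXL_018153 ranged from -0.25 to 0.62 and that of SmedASXL_008433 from -0.42 to 1.09 when each day was left out in turn. The standard errors leave room for a change between the periods, and for SmedASXL_008433 the early APC RNAi libraries held 5, 2 and 2 reads.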

How the data were processed

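The count table the authors deposited holds raw, unnormalized reads of 82955 SmedASXL transcripts. Per the file headers, a second deposited table gives log2 fold changes and adjusted p-values that DESeq2 found between APC and Bcat RNAi. Per the labels' protocols, libraries were polyA-selected TruSeq libraries. Per the submitters' processing notes, the tools were DESeq2, Bowtie2 2.2.4 and bcl2fastq 1.8.3. How reads fitting several similar transcripts were placed, and strand use, are not given in the sources used here, which leaves near-identical transcripts and isoforms uncertain. The rows of total and unaligned reads (5.47% unaligned over the 6 late libraries) were left out.

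Counts of the 6 libraries were fitted with edgeR 4.0.16 (R 4.3.3). Its filterByExpr step kept 34519 transcripts (those left out held 0.319% of the reads). TMM scaling and the quasi-likelihood test followed, with day as a factor, 2 residual degrees of freedom and 34.1 prior ones shared over transcripts. SE is the log2 change divided by the root of F. It is moderated over transcripts and can be smaller than the spread of 1 transcript over the days. CPM uses TMM factors of all 18 libraries, and log2 CPM a prior count of 2. The replicate number is the day, so the labels give the pairing, and same-day deviations correlated at 0.247, 0.521 and 0.458 at days 4, 5 and 6. No libraries were duplicates (lowest chi-square per degree of freedom 6.49). The treatment by period fit had 4 residual and 17.2 prior degrees of freedom. Named transcripts are the 2 largest rises and falls past adjusted p 0.05 with a mean of at least 2 CPM and, for late, the same direction on all 3 days or, for late minus early, every late difference beyond every early one. Members, rules and lists were chosen with earlier results of these data known. Alternatives covered scaling, filters, DESeq2 1.42.0, the block, the libraries used and leaving out each day. Gene lists were not run, since identifiers carry no names. Steps were tested on simulated data. Intervals and limits from reads cover counting error only.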

Additional observations from a re-analysis of the deposited data

Results flagged for a closer look

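The effect of APC RNAi differed between days 4 to 6 and days 1 to 3 by a direct test of the difference for 73 transcripts that moved up and 14 that moved down (edgeR quasi-likelihood test on the treatment by period term, adjusted p under 0.05). The largest were SmedASXL_006360 at 3.21 and SmedASXL_066371 at 2.83 on the log2 scale, and, downward, SmedASXL_011883 at -1.16 and SmedASXL_009894 at -0.81. With no replicate block 1 transcript moved up and 0 down, and with all 18 libraries 22 and 1. SmedASXL_006360 was called with no replicate block (adjusted p = 0.0112, edgeR) but not with all 18 libraries (adjusted p = 0.0685, edgeR). SmedASXL_066371, SmedASXL_011883 and SmedASXL_009894 were not called with no replicate block (adjusted p = 0.535, 0.902 and 0.902, edgeR). With 3 libraries in each group, no single library was tested for standing apart within its group.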

How the results depend on the processing

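The late log2 fold changes of the 4 named transcripts kept their direction and call under all 11 alternatives. The 78 higher transcripts of at least 2 CPM were each called in the same direction under all of them. So were the 69 lower ones except 1 with DESeq2. All of these were chosen by their size and call in the same libraries, so their keeping the call is not separate support. Of all 13358 late calls, 4879 were kept in the same direction with loess offsets and 7342 with DESeq2. When TMM factors came only from transcripts with 4 CPM or more, 2389 transcripts were higher, 98 at least 2-fold higher, 4221 at least 2-fold lower and 175 at least 2-fold lower at 2 CPM or more, and the median log2 change was -0.71 below 1 CPM and 0.09 over 64 CPM. Loess offsets gave 3429 higher and 3212 lower, 480 and 432 at 2-fold, and medians of -0.09 and 0.01. The filter of 1 CPM in 3 libraries gave 3619 and 4192, 70 and 527 at 2-fold, 123 lower at 2 CPM or more, and medians of -0.78 and 0.16. No filter gave 262 at least 2-fold higher. DESeq2, with its default filter on scarce transcripts, gave 1451 lower and 346 at least 2-fold lower. With no replicate block 3569 were higher and 3937 lower.

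Leaving out each day in turn gave 3553 to 6390 higher, 3948 to 5196 lower, 175 to 226 at least 2-fold higher and 1640 to 3165 at least 2-fold lower, and at 2 CPM or more 76 to 102 higher and 47 to 121 lower. Transcripts that moved up numbered 36 to 1333 and down 2 to 116. The other alternatives gave 135 up and 9 down with RLE size factors, 25 and 7 with those TMM factors, 37 up with loess offsets, 170 and 72 with no filter, 15 and 4 with the filter of 1 CPM in 3 libraries, 6 down with DESeq2, 1 and 0 with no replicate block, and 22 and 1 with all 18 libraries. The late minus early values of the 2 named falls, which were not called, changed sign: for SmedASXL_018153 to 0.08 with RLE size factors and 0.35 with DESeq2, with -0.25 to 0.62 over days left out, and for SmedASXL_008433 to -0.18 with DESeq2, with -0.42 to 1.09. The cause of these moves was not tested. The counts at 2 CPM or more, the class counts without day 5 and the late minus early alternatives of the transcripts named for their late change were chosen after seeing the data. The library measures kept their direction throughout. At this depth a level of 0.645 CPM, that of SmedASXL_018153 in APC RNAi at day 5, rests on 29 reads, and lower levels in that library on fewer. Single transcripts below 1 CPM vary by a median SD of 0.44 on the log2 scale over the days.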
